A study of Mus musculus with 2 samples.

Results

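Open chromatin sites that lie in the space between genes, far from any start of transcription, were examined in the mouse adrenal gland. The members were all peaks of the longer deposited peak list of each library whose centre lay outside every annotated gene body and over 50 kb from the nearest annotated transcription start site (TSS) on mm10. They are called far intergenic sites below. Replicate 1 held 8796 of them among 157566 peaks on chromosomes 1 to 19 and X, and replicate 2 held 9222 among 166182, which is 5.57% ± 0.0234 of the peaks (SD, n = 2).

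The sites were found by DNase-seq, in which the nuclease DNase I cuts chromatin where it is accessible, so that active regulatory DNA appears as peaks of cut sites. The tissue was the whole adrenal gland of female mice aged 36 days of the strain B6CASTF1/J, the F1 hybrid of C57BL/6J and the wild-derived strain CAST/EiJ. The study had 1 group of 2 libraries, biological replicates 1 and 2, with no treatment, so that no p-value was computed and each value is given for both libraries. The labels give the libraries different animal numbers but the same donor record, so they were taken as separate animals, and an SD with n = 2 is the spread between these libraries, which may be technical. Peaks of 1 library are not replicates of a condition, and every binomial interval below (95%, Wilson) covers counting error over sites only. As a check of the tissue label, a peak lay within 1 kb of a TSS at 6 and 5 of 7 adrenal cortex genes in replicates 1 and 2, at 4 and 5 of 6 medulla genes, and at 1 and 2 of 6 genes of other organs. Hsd3b1 lacked such a peak in both libraries, Pnmt in replicate 1 and Mc2r in replicate 2, while of the genes of other organs Lrp2 had a peak in both and Slc12a1 in replicate 2. In a whole gland, fewer cells with a site open and a site less open in each cell cannot be told apart.

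As background, DNA far from genes holds enhancers, which are bound by transcription factors and can act on a promoter over long distances by looping. It also holds boundaries between chromatin loops, many of them bound by the zinc finger protein CTCF, and long stretches with few genes or known functions, called gene deserts. Genes that direct development often have wide flanks of this kind that carry many separate enhancers. Where a protein sits on open DNA it shields a few bases from cutting, and these short protected stretches are called footprints.

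Some of the tallest far intergenic sites are shown first, because their letters show what lay under the footprints. Each line gives the mm10 plus strand of 1 deposited peak from 5′ to 3′, as RefSeq's GRCm38.p6 sequence has it, and capitals mark bases inside footprints of both libraries. The reference is that of C57BL/6J, and the alleles of the CAST/EiJ parent were not analysed here. The first 4 are among the 10 tallest shared sites, and the last pair are the tallest shared sites of the gaps between Prickle1 and Adamts20 and between Ccnd1 and Tpcn2.
Irf2bp2 to Tomm20, chr8:126666461-126666640: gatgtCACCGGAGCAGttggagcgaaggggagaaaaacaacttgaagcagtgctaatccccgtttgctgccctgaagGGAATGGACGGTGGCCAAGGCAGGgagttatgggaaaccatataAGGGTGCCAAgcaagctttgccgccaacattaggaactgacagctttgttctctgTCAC
Lrpap1 to Adra2c, chr5:35189201-35189400: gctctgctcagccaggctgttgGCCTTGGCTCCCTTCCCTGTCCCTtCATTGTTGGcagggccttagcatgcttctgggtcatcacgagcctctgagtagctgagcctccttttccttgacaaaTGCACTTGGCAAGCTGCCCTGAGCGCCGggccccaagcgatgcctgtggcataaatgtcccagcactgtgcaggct
Tmem72 to Cxcl12, chr6:116829461-116829660: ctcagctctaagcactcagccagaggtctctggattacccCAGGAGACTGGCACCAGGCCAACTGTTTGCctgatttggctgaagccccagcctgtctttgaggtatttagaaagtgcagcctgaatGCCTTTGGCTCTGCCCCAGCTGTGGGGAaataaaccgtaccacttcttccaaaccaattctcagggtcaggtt
Myc to Gsdmc, chr15:62903101-62903260: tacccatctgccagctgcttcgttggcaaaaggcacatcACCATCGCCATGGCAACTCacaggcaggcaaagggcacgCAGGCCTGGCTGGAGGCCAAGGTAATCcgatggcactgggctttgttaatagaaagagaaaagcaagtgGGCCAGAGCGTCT
Prickle1 to Adamts20, chr15:94265761-94265920: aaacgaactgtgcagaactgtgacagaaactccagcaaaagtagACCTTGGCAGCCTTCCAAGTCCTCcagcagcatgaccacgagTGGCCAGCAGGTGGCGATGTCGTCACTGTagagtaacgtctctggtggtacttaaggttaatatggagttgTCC
Ccnd1 to Tpcn2, chr7:145106581-145106780: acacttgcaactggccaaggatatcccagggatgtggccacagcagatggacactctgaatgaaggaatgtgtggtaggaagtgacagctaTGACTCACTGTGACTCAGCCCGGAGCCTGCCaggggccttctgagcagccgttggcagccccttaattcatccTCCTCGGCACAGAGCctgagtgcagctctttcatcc

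The footprints of both libraries wholly covered at least 1 of the searched elements in 5 of these 6 sites. These sites were chosen with their footprints in view, and of all 20 tall sites whose letters were searched 7 had such an element. In the Irf2bp2 to Tomm20 site it was the TEAD element GGAATG, read by the effectors of the Hippo pathway, at positions 78 to 83 counted from the 5′ end of the printed strand. In the Tmem72 to Cxcl12 site all 15 bases of a nuclear factor I (NFI) palindrome, at positions 48 to 62, lay in footprints of both libraries, and so did all 15 bases of the NFI palindrome at positions 84 to 98 of the Myc to Gsdmc site. The Prickle1 to Adamts20 site carried a core of the CTCF element at positions 90 to 102, with all 13 bases protected in both libraries. A pair of AP-1 elements, TGACTCA, stood at positions 92 to 98 and 102 to 108 of the Ccnd1 to Tpcn2 site, and both were wholly protected. AP-1 is the dimer of Fos and Jun proteins that binds after many kinds of stimulation.

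Far intergenic sites were few for the space they had. That space measured 404 Mb, or 15.8% of the bases of these chromosomes without runs of N, and 40.5% of it was in lower case as repeated sequence. It held 21.8 sites per Mb in replicate 1 and 22.8 in replicate 2. Intergenic space over 1 kb and up to 50 kb from a TSS, whose sites are called near intergenic, held 45.6 and 47.2 per Mb, which is 2.09 and 2.07 times as many, and introns held 59.4 and 62.3, which is 2.73 times as many in both libraries. Both libraries gave the same order, and the gap between the classes was many times the difference between the libraries.

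The sites were also low. Peak height is the deposited signal in column 7 of the peak list, whose scaling is not given in the sources used here, so that heights are compared within a library. Median height was 0.505 in replicate 1 and 0.468 in replicate 2 (0.486 ± 0.0260, SD, n = 2). Near intergenic sites had medians of 0.804 and 0.856, intronic sites 0.813 and 0.874, and promoter sites, within 1 kb of a TSS, 1.59 and 2.03. The far median was thus 0.628 and 0.546 times the near one. Width differed less: the median peak was 160 bp wide in both libraries against 180 and 160 bp near genes. Of the far sites 53.3% ± 2.38 fell in the lowest height quartile of all peaks of their library and 8.73% ± 0.677 in the top quartile, against 29.8% ± 0.0225 and 19.7% ± 0.109 of the near sites (SD, n = 2). The tallest far intergenic site reached 16.4 in replicate 1 and 28.5 in replicate 2.

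**Figure D1:**
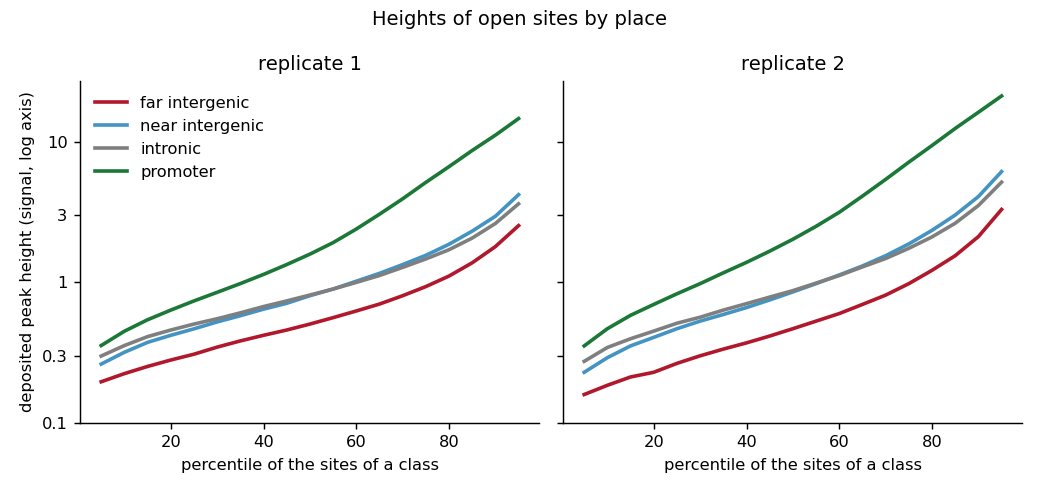
Deposited peak height (signal, log axis) against the percentile of the sites of each class, for far intergenic, near intergenic, intronic and promoter sites, with 1 panel per library. The line of the far intergenic sites is the lowest at every percentile shown in both libraries, with medians of 0.505 and 0.468, and the lines of near intergenic and intronic sites lie close together.

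Density and height were lower at greater distances. Of the members 65.8% in replicate 1 and 66% in replicate 2 lay 50 to 100 kb from the nearest TSS, and the median distance was 80.8 and 81.2 kb. Density in replicate 1 was 25.6 sites per Mb at 50 to 100 kb, 18.1 at 100 to 200 kb and 13.4 at 200 to 500 kb. In replicate 2 it was 26.9, 18.7 and 14.4 per Mb. Median height over the same steps was 0.542, 0.439 and 0.383 in replicate 1 and 0.512, 0.397 and 0.335 in replicate 2, so that the order was the same in both. The most remote sites lay 578 kb and 547 kb from a TSS, and beyond 500 kb there were 2 sites in replicate 1 and 3 in replicate 2.

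A site was called shared when it overlapped a peak of the other library by at least 1 bp. Of the far intergenic sites of replicate 1, 5877 (66.8%, interval 65.8 to 67.8) were shared, and of those of replicate 2, 5889 (63.9%, interval 62.9 to 64.8). The near intergenic sites were shared more often, at 78% and 75.4%, and intronic sites at 78.2% and 74.7%. Footprints followed the same order. At least 1 footprint centre lay in 61.1% and 55.3% of far sites, against 74.4% and 72.4% of near sites.

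At matched height the order turned for all but the lowest sites. In the second height quartile 85.6% (interval 84.0 to 87.1) and 87.7% (86.2 to 89.1) of far intergenic sites were shared, against 79.9% and 76.1% of near sites and 77.7% and 71.6% of intronic ones. In the third quartile the shares were 97.8% and 98.6% for far sites and 96.7% and 95.3% for near sites. In the top quartile all 810 far sites of replicate 1 and all 761 of replicate 2 had a partner, while 24 and 32 near sites had none. The exception was the lowest quartile, where 42.6% and 39.2% of far sites were shared against 46.1% and 42.6% of near sites, and where the far sites were also lower than the near ones within the quartile (median 0.318 and 0.282 against 0.374 and 0.353). Peaks lie closer together near genes, which raises the number of peaks a site can meet, and the part of that density in these shares was not tested. Footprints showed the same turn. In the second quartile 84.3% and 84.0% of far sites had a footprint against 79.9% and 80.2% of near sites, and in the lowest quartile 32.8% and 26.1% against 37.3% and 31.5%.

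**Figure D2:**
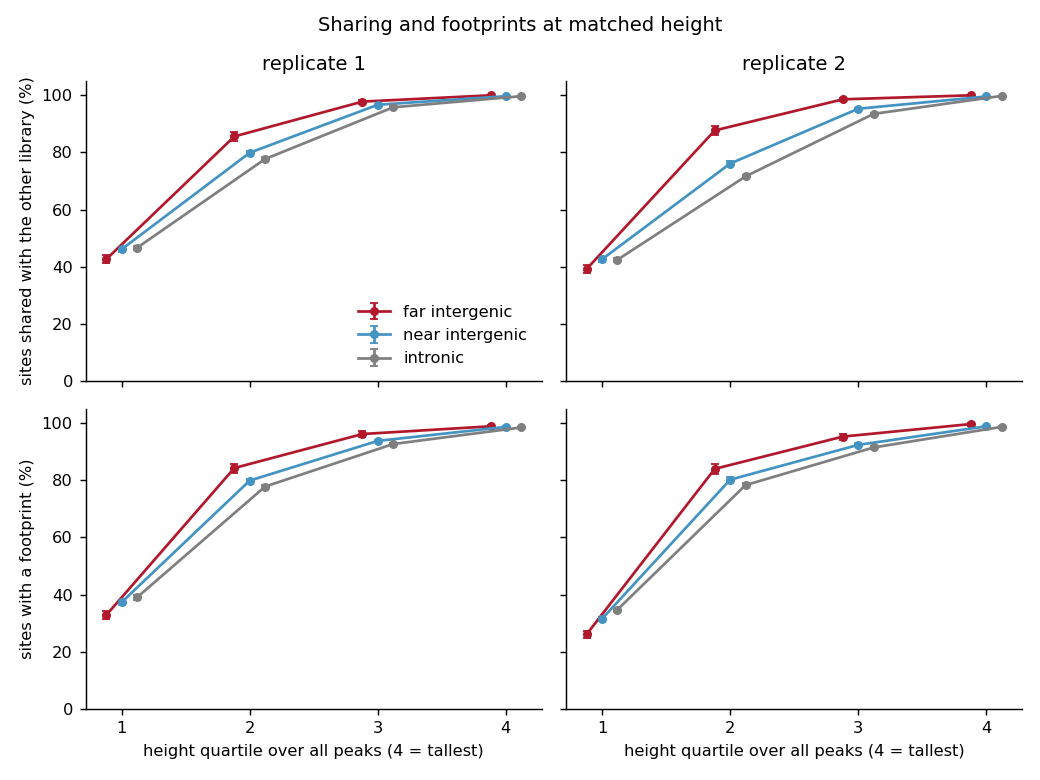
Percent of sites shared with the other library (top) and with a footprint (bottom) by height quartile over all peaks of the library, for far intergenic, near intergenic and intronic sites, with 95% Wilson intervals that cover counting error only. In quartiles 2 and 3 the far intergenic points lie above the others in both libraries, and in quartile 1 they lie below.

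Most sites without a partner touched no listed position of the other library. Peaks of every class touched a listed position of their own library in 100% of cases. A site that met no peak of the other library could thus seldom touch one, and this outcome was largely set by the definition. Of the unshared sites 6.20% of 2919 in replicate 1 touched a position under a false discovery rate of 0.05 in the table of replicate 2, and 5.64% of 3333 in replicate 2 did so in that of replicate 1. At or under 0.001 the shares were 0.617% and 0.810%. Near intergenic sites without a partner touched a position under 0.05 more often, in 9.91% and 10.6% of cases. The unshared far sites were low, with medians of 0.290 and 0.229 against 0.710 and 0.741 for shared far sites. None of them was taller than 1.71 in replicate 1 or 2.26 in replicate 2. They were also richer in repeats. Lower-case bases made up 19.3% and 29.5% of their 200 bp windows against 10.8% and 11% for shared sites, and 13.4% and 23.7% of them had fewer than 90% unique 32-mers against 4.85% and 5.11%. The libraries differed in what their unshared sites carried. AP-1 letters occurred in 22.1% of the unshared sites of replicate 1 and in 10.8% of those of replicate 2, against 25.9% and 25.3% of the shared sites.

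The height ratio between the libraries was set against that of all shared peaks, because the scaling of the heights is unknown and a log2 ratio of 0 has no meaning of its own. The median log2 ratio of replicate 2 over replicate 1 was 0.145 over 5877 shared far sites and 0.383 over all shared peaks. It was 0.292 at near intergenic sites, 0.286 at intronic ones and 0.539 at promoters, so that the far sites had the lowest median of these 4 classes. Within the far sites it differed with height, at 0.150, -0.0190, 0.140 and 0.389 from the lowest to the top height quartile of replicate 1. The classes were not compared at matched height, and the part of height in the low far median was not tested.

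The sequence of the sites was read in 200 bp around each centre, on both strands, with exact matches to 18 elements. The far intergenic windows were slightly lower in GC, at 48.5% ± 0.884 against 50.4% ± 0.636 for near ones, and held 1.26 ± 0.0582 against 1.67 ± 0.0657 CpG per 100 bp (SD, n = 2). The most common element was AP-1 (TGANTCA), in 22.3% ± 3.28 of far sites and 20.6% ± 2.00 of near ones. SF-1 (CAAGGTCA), the element of the nuclear receptor Nr5a1 that steers steroid-producing cells, occurred in 5.53% ± 0.389 against 5.01% ± 0.232. The NR4A element (AAAGGTCA), bound by the immediate early nuclear receptors of the Nur77 family and sharing its last letters with SF-1, occurred in 2.94% ± 0.459 against 2.38% ± 0.408. For these 3 elements the far share was higher than the near one within each library, at 1.12 and 1.04 times for AP-1, 1.12 and 1.08 times for SF-1 and 1.22 and 1.25 times for NR4A, while for AP-1 the spread between the libraries was larger than the difference between the classes. Intronic sites held SF-1 in 5.82% and 5.49% against 5.81% and 5.26% of far ones, and AP-1 in 23.0% and 20.1% against 24.7% and 20%. NR4A stood in 2.92% and 2.29% of intronic sites, below the far 3.26% and 2.61%.

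CTCF, SP, ETS and cyclic AMP response elements were scarcer at far than at near intergenic sites. The CTCF core stood in 3.18% ± 0.161 of far sites against 5.29% ± 0.207 of near ones, a ratio of 0.607 in replicate 1 and 0.597 in replicate 2. It stood in 3.8% and 3.59% of intronic sites, and in 1.70% and 1.65% of promoter sites, which is below the far share. The SP element of GC boxes (GGGGCGGG) occurred in 0.969% ± 0.132 against 2.01% ± 0.221, the ETS element (CCGGAAG) in 1.07% ± 0.0977 against 1.71% ± 0.0738, and the cyclic AMP response element (TGACGTCA) in 0.267% ± 0.0403 against 0.443% ± 0.00247 (SD, n = 2). The lower GC and CpG content moved with the shares of the last 3 elements, and its part in them was not tested. Far sites with a CTCF core had a mean GC of 46.8% and 47.4%, against 47.9% and 49.2% for those without. Far sites were also lower than near ones, and the part of height in the CTCF share was not tested. More common at far than at near sites were the E-box CATATG, read by basic helix-loop-helix proteins of the neuronal type, in 4.0% ± 0.400 against 2.87% ± 0.0230, and the POU octamer ATGCAAAT, in 1.03% ± 0.0736 against 0.799% ± 0.0350. The CATATG sites were among the lowest, with medians of 0.392 and 0.256 against 0.505 and 0.477 for far sites without it, and were shared in 52.9% and 43.3% of cases. By height quartile, CATATG was more common at far than at near sites in both libraries only in the lowest quartile. There it stood in 4.65% of far against 3.46% of near sites in replicate 1. In the second quartile it stood in 2.59% and 2.68% of far sites against 2.91% and 2.65% of near ones. In the third and top quartiles the far share was higher in replicate 1 and lower in replicate 2.

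**Figure D3:**
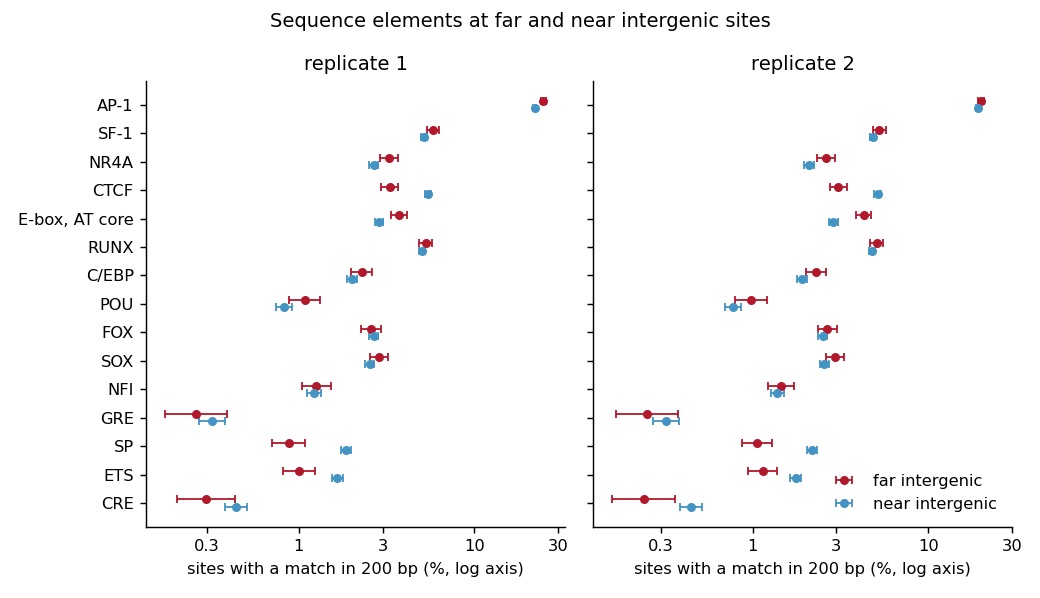
Percent of far and near intergenic sites with a match to each of 15 elements in 200 bp (log axis), with 95% Wilson intervals that cover counting error only, and 1 panel per library. CTCF, SP, ETS and the cyclic AMP response element (CRE) are lower at far sites in both libraries, and NR4A and the E-box with an AT core are higher.

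The few far sites with a CTCF core stood out in height. There were 290 in replicate 1 and 283 in replicate 2, with medians of 1.16 and 1.48 against 0.495 and 0.450 for the other far sites. They were shared in 92.1% (interval 88.4 to 94.7) and 93.3% (89.8 to 95.7) of cases. Near sites with the core stood out likewise, with medians of 1.84 and 2.64 against 0.766 and 0.812 without it. Of these near sites 93.2% and 95.1% were shared. A footprint covered at least 50% of the element in 73.1% and 75.3% of the far ones, against 84.3% and 85.5% of the near ones. Footprints covered 6.97% and 6.34% of all bases in far windows. AP-1 elements were much less often under a footprint, in 19.6% and 15.3% of far sites that had one, which is above the coverage of the windows but far below CTCF. Within the far sites taller ones held more CTCF cores, with 1.34% and 1.14% in the lowest height quartile and 9.38% and 9.99% in the top one. AP-1 was likewise more common in the top quartile, at 30.7% and 25.1% against 21% and 16.4% in the lowest, and so was the NFI palindrome, at 2.47% and 3.55% against 0.816% and 0.928%. CATATG went the other way, with 2.72% and 1.97% in the top quartile against 4.65% and 5.78% in the lowest.

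All 2080 6-letter words, each counted with its reverse complement, were then ranked by how often they lay wholly inside a footprint, a list made after the sequences above had been seen. Over all words this was 4.04% of occurrences in far windows of replicate 1 and 3.81% in replicate 2. The word GCGCCA was first in both libraries, at 34.0% of 388 occurrences and 34.9% of 447. Its reverse complement TGGCGC shares the letters TGGCG with GTGGCG, a part of the CTCF core. GTGGCG ranked 3 and 5, at 29.5% in both. In near windows the shares were higher, at 41.6% and 42.5% for GCGCCA and 38.3% and 39.4% for GTGGCG. The NFI half-site TTGGCA stood at rank 38 in replicate 1, with 14.6%, and at rank 69 in replicate 2. The other NFI half-site, TTGGCT, was lower, at 7.41% and 7.05% and ranks 269 and 317. TGACTC of AP-1 was at 10.4% and 7.94%, and AAGGTC of SF-1 at 8.88% and 7.38%. At the other end, AGATAA of GATA factors lay in footprints at 2.59% and 1.86% of its occurrences and CATATG at 2.33% and 2.69%, below the average word. The cutting preference of DNase I also depends on such letters, and its part in these shares was not tested.

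Footprints were of similar length in far and near sites. Their median length was 9 bp at far sites in both libraries, and 9 and 10 bp at near sites in replicates 1 and 2. Of the far footprints 95% were at or under 26.0 and 28.0 bp, against 29.0 and 31.0 bp for near ones. A far site held 1.2 and 1.0 footprints on average, against 1.58 and 1.47 near genes. At least 3 footprints lay in 16.3% and 12.1% of far sites and in 23.7% and 20.5% of near ones.

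The sites were not spread evenly along the chromosomes. Another far intergenic site lay within the linking distance, set between 12 and 13 kb from centre to centre, for 62.2% and 59.4% of them, against 75.1% and 75.6% of near sites counted among near sites. A higher density by itself raises this share, and near sites were denser, so the 2 classes cannot be ranked by clustering from it. The part of density was not tested. Chained at that distance, the members formed 225 chains of 5 or more sites in replicate 1 and 219 in replicate 2, which held 16.5% and 16.0% of the sites, and 3321 and 3741 sites stood alone. Sites in the long chains were taller, with medians of 0.729 and 0.847 against 0.374 and 0.318 for single sites. They were also shared more often, at 76.5% and 76.8% against 58.1% and 52.9%.

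The largest chain belonged to the flank of Irf2bp2, a corepressor that partners interferon regulatory factors. It spanned 56.7 kb at chr8:126651053-126707748 and held 20 sites in replicate 1 and 22 in replicate 2, of which 18 in replicate 1 had a partner. Heights there ran from 0.617 to 16.4 with a median of 1.47 in replicate 1, and from 0.733 to 28.5 with a median of 1.46 in replicate 2. It contained the tallest far intergenic site of the genome in these data, 72.6 kb from the Irf2bp2 TSS. The next chains by number of sites in replicate 1 lay between Smyd2 and Prox1 (15 and 12 sites), between Fam43a and Xxylt1 (15 and 11), between Map4k3 and Tmem178 (15 and 15) and between Wwox and Maf (14 and 16). Prox1 is a homeobox factor known from lymphatic vessels and liver, and Maf is a large basic leucine zipper factor. Tallest sites of these 4 chains stayed between 1.35 and 3.10 in replicate 1 and between 1.67 and 3.40 in replicate 2, far below the Irf2bp2 chain.

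The 10 tallest shared sites, ranked by the mean of the libraries, had heights from 9.25 to 16.4 in replicate 1 and from 12.2 to 28.5 in replicate 2. Heights of replicate 2 weigh more in that mean, being larger on a scale that is not known, and a site at 9.97 and 12.6 on chromosome 3, outside the 10, was taller in replicate 1 than the sixth. After the Irf2bp2 site, at 16.4 and 28.5, came the one between Lrpap1, a chaperone of lipoprotein receptors, and the adrenergic receptor gene Adra2c, at 12.7 and 22.0, 83.5 kb from the Lrpap1 TSS. The third lay at chr14:78383441-78383560, 75.5 kb from Tnfsf11, the gene of the osteoclast factor RANKL, at 11.4 and 21.2. The fourth, at 10.2 and 17.6, stood between Tmem72 and the chemokine gene Cxcl12, and the sixth, at 9.25 and 17.1, 88.8 kb from the repressor gene Zeb1. The seventh, at 10.5 and 15.3, lay 56.3 kb from Gadd45g, a stress response gene. The ninth, at 9.84 and 14.2, stood in the wide gap between Myc and Gsdmc, 906 kb from the nearest protein-coding TSS. Among the sites described here, the fifth (chr1:122357141-122357300) and the tenth (chr1:102628181-102628320) had fewer than 90% unique 32-mers, at 84.0% and 65.1%, and the part of reads from other copies in their heights was not tested.

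A gap is the stretch between neighbouring annotated genes of any type, and its far part is the bases over 50 kb from a TSS. There were 3912 gaps with some far space. Of these 1575 held no site in replicate 1 and 1392 none in replicate 2, with 1181 empty in both. At the other end 172 and 166 gaps held 10 or more sites, 129 of them in both libraries, which is 75% and 77.7% of each list. These rich gaps took up 11.3% and 11.4% of the far space and held 27.6% and 26.2% of the sites, at 53.2 and 52.2 per Mb. They were chosen by their number of sites, which by itself raises both their share of the sites and their density. Larger gaps were less dense. Density was 36.7 and 38.9 per Mb in gaps with up to 50 kb of far space, 17 and 18 in those with 200 to 500 kb, and 5.52 and 5.82 in the 3 gaps with over 1000 kb. None of the 66 gaps with at least 500 kb of far space was empty in both libraries.

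The richest gap lay beyond Gata6, which encodes a zinc finger factor of the adrenal cortex, and reached to Rbbp8, a DNA repair gene. It held 42 sites in replicate 1 and 51 in replicate 2 in 466 kb of far space on chromosome 18, or 90.2 and 109 per Mb. Heights there ran from 0.243 to 4.97 with a median of 0.733 in replicate 1, and from 0.212 to 6.28 with a median of 0.741 in replicate 2. Sites stretched from 59.5 kb to 500 kb and 495 kb beyond the Gata6 TSS, and the tallest stood 419 kb away in both libraries. Another annotated TSS was closer to the tallest site of replicate 1, at 154 kb. Of the 42 sites 33 were shared, and of the 51 sites 34. The GATA element AGATAA occurred in 2 and 4 of them, and AP-1 in 9 and 6.

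**Figure D4:**
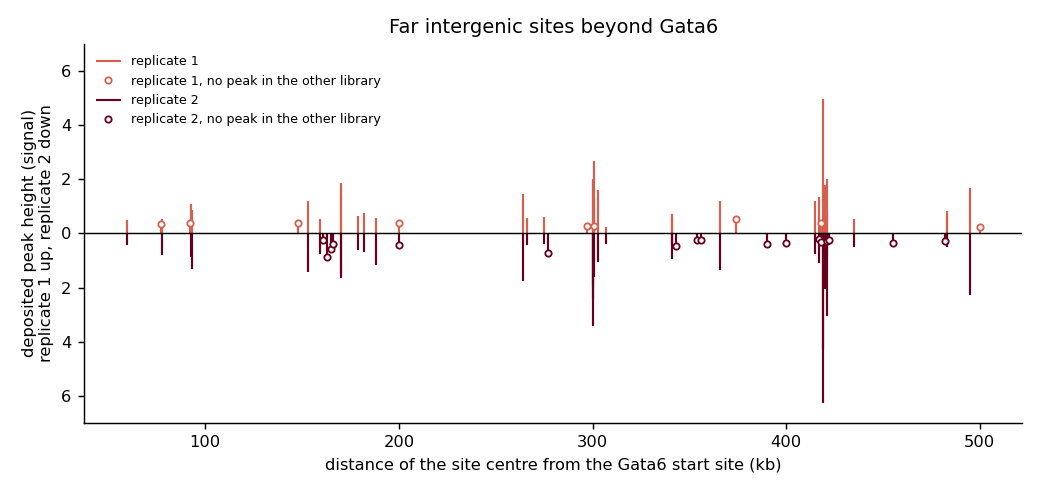
Far intergenic sites in the gap from Gata6 to Rbbp8, as lines of their deposited height (signal) against the distance from the Gata6 TSS in kb, with replicate 1 drawn upward and replicate 2 downward, and open circles on sites with no peak in the other library. The tallest lines of both libraries, 4.97 and 6.28, stand at 419 kb, and the open circles are on sites of at most 0.523 in replicate 1 and 0.883 in replicate 2.

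The other 9 of the 10 richest gaps held from 20 to 35 sites in a library. Between Pard3, a cell polarity scaffold, and Nrp1, a co-receptor for semaphorins and vascular growth factors, there were 35 and 30 sites. The gap between the cadherin genes Cdh26 and Cdh4 held 30 in each library, though Cdh4 lay 422 kb past its end. The gap before Grin2a, a glutamate receptor subunit, held 31 and 27, and the one before Cdh5, the cadherin of endothelium, 29 and 27. Disc1 and Sipa1l2 are neighbours whose ends face each other, and the gap between them, of 141 kb of far space, held 26 and 31 sites. That was 185 and 220 per Mb, the highest mean density among gaps with at least 100 kb of far space and at least 5 sites in each library. When RefSeq genes were also counted as genes, 7 and 11 of its sites were still far from a gene. Median height there was 1.28 and 1.25, above the medians of the other 9 richest gaps in both libraries.

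Next in density was the gap between the corepressor gene Tle3 and Rplp1, with 27 and 25 sites at 208 and 193 per Mb. The gap between the ephrin gene Efnb1 and Pja1 on the X chromosome held 20 and 29, at 111 and 160 per Mb. Wwox to Maf held 23 and 24, at 126 and 131 per Mb, and Ccnd1, the gene of cyclin D1, to Tpcn2 held 15 and 16, at 122 and 130 per Mb. Prickle1 to Adamts20 had 23 and 28 sites, and Nox3 to Arid1b 27 and 24. In the 10 richest gaps the share of sites of replicate 1 with a partner ran from 68.6% in Pard3 to Nrp1 to 90% in Efnb1 to Pja1, and that of replicate 2 from 62.1% in Efnb1 to Pja1 to 92.6% in Cdh11 to Cdh5. A CTCF core occurred in 3 sites of the Cdh26 to Cdh4 gap and 1 site of the Prickle1 to Adamts20 gap in each library, and in no site of the other 8.

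**Figure D5:**
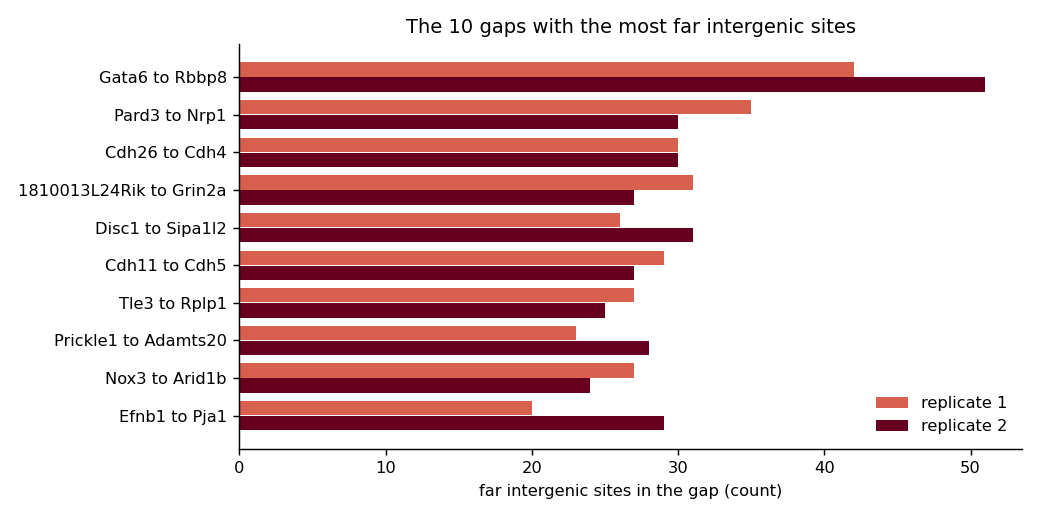
Number of far intergenic sites in each of the 10 richest gaps, named by the nearest protein-coding gene on either side, with 1 bar per library. The gap from Gata6 to Rbbp8 leads in both libraries, with 42 and 51 sites, and the other gaps hold between 20 and 35.

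Some wide gaps had no far intergenic site in either library. The widest was between Kcnt2, a potassium channel gene, and Cdc73, with 334 kb of far space. Between Cdh19 and Dsel there were 308 kb, between Lrrc7 and Depdc1a 298 kb, and between the orphan receptor gene Nr2f1 and Arrdc3 283 kb. A gap is only as wide as the annotation makes it, so that a desert with noncoding genes in it counts as several. When only protein-coding genes ended a gap, the stretch from Sel1l to Flrt2 led by the mean of the libraries, with 57 and 42 of the sites in 3843 kb, though in replicate 2 the next 3 held more. These were Gata6 to Rbbp8 (42 and 51), Camk1g to Plxna2 (44 and 49) and Klf4 to Actl7b (42 and 45).

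The X chromosome was the poorest. It had 10 and 13 far intergenic sites per Mb against 22.8 and 23.7 on the autosomes, and its sites were lower, with medians of 0.392 and 0.265 against 0.505 and 0.477. Far sites on the X thus had 0.440 and 0.548 times the autosomal density. Near intergenic sites were also sparser there, at 0.332 and 0.346 times the autosomal density. Among the autosomes density ran from 18.4 per Mb on chromosome 14 to 29.3 on chromosome 13 in replicate 1, and from 17.9 on chromosome 3 to 30.3 on chromosome 7 in replicate 2.

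Genes of 11 lists were placed beside this space, by the far sites between each gene and its next protein-coding neighbours. Of all 21728 protein-coding genes 3153 flanked far space, and 74.7% of these had sites in both libraries. The density pooled over them was 21.8 and 22.8 per Mb, and the median over genes was 22.9 and 22.8. Densities of the lists below are pooled in the same way, unless given as a median. Among 17 adrenal transcription factors 13 flanked far space and 12 had sites in both libraries, at 33.6 and 33.9 per Mb, with 44 and 53 sites beside Gata6 and 32 and 29 beside Prox1. The median over these 13 genes was 23.0 per Mb in replicate 1, near that of all genes, and 36.9 in replicate 2. Of 16 steroidogenic genes 1, the corticotropin receptor gene Mc2r, flanked far space (6.25%, against 14.5% of all protein-coding genes), with 9 and 12 sites. Of 20 circadian and immediate early genes 5 flanked far space, at 62.4 and 55.9 per Mb, of which Klf4, a zinc finger factor, took 42 and 45 sites and Jun, a subunit of AP-1, 9 and 9.

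The remaining lists ranged from 10.5 to 43.7 sites per Mb in replicate 1. Of 18 chromaffin cell genes 7 flanked far space, at 18.9 and 19.5 per Mb, with 18 and 23 sites beside Sox11, 18 and 19 beside Gata3 and 16 and 13 beside Isl1. Of 12 endothelial genes 5 did, at 43.7 and 39.8 per Mb, where Cdh5 alone took 39 and 37 sites. The 8 of 12 genes of stroma and capsule had 31.5 and 32.7 per Mb, the 8 of 19 genes of the zona glomerulosa and its signals 38.7 and 35.4, and the 2 of 5 X-zone genes 37.6 and 31.9. Of these 2 X-zone genes, with 0.532 Mb of far space, 1 had sites in both libraries, and the median over them was 19.3 and 84.7 per Mb. Of 20 brain genes 18 flanked far space, 17.1 Mb in all, at a density of 10.5 and 11.4 per Mb. Olfactory and vomeronasal receptors flanked little of it, 33 of 1464, at 12.3 and 16.2 per Mb, and 8 of these 33 had sites in both libraries. In the developmental factor families 71 of 207 genes flanked far space, at 27.4 and 27.8 per Mb, with 48 and 47 sites beside Sox9. The genes of a list differ in number, in far space and in shared gaps, so that these densities are a description only.

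What counts as far from genes rested on the annotation. The comprehensive GENCODE set was used here, and when the RefSeq genes of the same assembly were added, a step chosen after the values were seen, 5549 of 8796 sites (63.1%) and 5896 of 9222 (63.9%) still qualified. Sites with their centre in a RefSeq gene numbered 979 and 968, and those outside such genes but within 50 kb of a RefSeq start 2268 and 2358. The sites that still qualified were lower than the rest, at 0.449 and 0.388 against 0.579 and 0.618 for those in RefSeq genes, and less often shared, at 63.0% and 59.4% against 72.2% and 73.0%. With RefSeq added, the Gata6 gap kept 31 and 38 of its sites and the Wwox to Maf gap all 23 and 24, while the Tle3 to Rplp1 and Efnb1 to Pja1 gaps kept none. The Ccnd1 to Tpcn2 gap kept 3 and 4, Prickle1 to Adamts20 6 and 6, and Cdh26 to Cdh4 9 and 11. Of the remaining richest gaps Pard3 to Nrp1 kept 16 and 17, the gap before Cdh5 15 and 13, the gap before Grin2a 22 and 17, and Nox3 to Arid1b 22 and 20. Of the tallest sites, that between Tmem72 and Cxcl12 fell inside the RefSeq noncoding gene Gm36873. The Lrpap1 to Adra2c site lay 28.0 kb from a RefSeq start and the third tallest 35.2 kb, so neither still qualified as far. The Irf2bp2 site was 63.2 kb from the nearest RefSeq start. Transfer RNA genes of RefSeq overlapped 4 and 3 far sites, and enhancer records of RefSeq overlapped 32 and 33 (0.364% and 0.358%), against 0.431% and 0.473% of near sites. The 32 and 33 sites in such records had medians of 1.12 and 1.41, and 93.8% and 87.9% of them were shared.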

How the data were processed

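DNase-seq libraries of whole adrenal glands were grouped by their labels into 1 group of 2 biological replicates. For each, the authors deposited a longer and a shorter peak list with a height per peak, a signal whose scaling no source used here states, a table of false discovery rates (q-values, a kind of p-value, listed only below 0.05) and a footprint list. Every deposited footprint has the same p-value, 0.01, and footprints were therefore not ranked. Per the labels all are on mm10, while the sources used here name no aligner or peak caller. Heights were whole multiples of a step of 0.00934 in replicate 1 and 0.00883 in replicate 2 (tolerance 0.05 steps, peaks under 500 steps), and the lowest far sites were at 9.00 and 8.00 steps. Read depth was not analysed here, so that heights carry no counting interval.

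Peaks of chromosomes 1 to 19 and X were classed by their centre against the comprehensive GENCODE release M21, on GRCm38.p6, in the order promoter (1 kb around a TSS), exon, intron, far intergenic (over 50 kb from a TSS) and near intergenic. Sequence and RefSeq records came from RefSeq's files of that assembly. The tools were bedtools, numba 0.67.0, scipy 1.17.1, pandas 2.3.3 and numpy 2.4.6 under Python 3.11.15, with matplotlib 3.10.9 for figures, and classing, sharing, chaining and gap steps were tested on simulated data. The members, lists and elements were chosen with earlier results of these data known. Named are the 10 tallest shared sites, the 10 gaps with the most sites, the 5 densest gaps (at least 100 kb of far space and 5 sites in each library), the 5 chains with the most sites in replicate 1 and the 3 leading genes of each list. Sequences are shown for some of these, none from chromosome 18, and some genes and 1 site that these rules name are not reported here. Alternatives were the shorter list, other distances, other annotations, other rules for sharing, footprints, chains and gaps, unique sequence, and each library alone.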

Additional observations from a re-analysis of the deposited data

How the results depend on the processing

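Of 75 alternative values 32 stayed within a narrow limit (1 SD between the libraries for heights and shares, 1.5 times for the number of sites, a small fixed step for the log2 ratio), 43 lay outside it, and none changed sign. Heights and shares of each library alone could not leave that limit, because with n = 2 each library lies within 1 SD of the mean by construction. Counts, heights and shares cannot change sign, so that only the log2 ratio could have done so. The cause was not tested beyond what each alternative changes by construction. The shorter list, which keeps only stronger peaks, gave 4652 sites per library on average with a median height of 0.928. Of these 85.8% had a footprint, 77.3% were shared, 52.4% had another site within the linking distance and 12.9% lay in gaps of 10 or more. AP-1 stood in 26.7%, CTCF in 5.34% and SF-1 in 6.27%, and the log2 ratio of replicate 2 over replicate 1 was 0.247. Over 25 kb from a TSS there were 18478 sites, with a median height of 0.563, 62.8% with a footprint, 69.2% shared and 66.4% linked. Over 100 kb there were 3068 sites, with 0.405, 51.6%, 59.9% and 53.4% for the same measures and 25.6% in rich gaps. With protein-coding genes only the number was 28788, the height 0.581, and the shares 63.4% with a footprint, 69.9% shared, 70.3% linked and 77.6% in rich gaps. With RefSeq genes added, chosen after seeing the data, the number was 5722, the height 0.418, and the shares 53.2%, 61.2%, 54.0% and 16.6%. With the basic GENCODE set, also chosen after seeing the data, none of the 6 values moved.

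Unique sequence gave a height of 0.518 and 68.4% shared. Sharing was 58.5% by 50% of each peak, where the log2 ratio was 0.162, and 58.8% by centres within 50 bp. Links within 5 kb held 43.3% and within 25 kb 73.0% of sites. Gaps between protein-coding genes put 53.5% of the sites in rich gaps. The mean height was 0.879 in place of the median. Searching the peak itself left SF-1 in 5.03%. Each library alone gave 8796 to 9222 sites, heights of 0.468 to 0.505, 55.3% to 61.1% with a footprint, 63.9% to 66.8% shared, 59.4% to 62.2% linked, 26.2% to 27.6% in rich gaps, and AP-1 in 20% to 24.7%, CTCF in 3.07% to 3.30% and SF-1 in 5.26% to 5.81%. The far sites were lower than the near ones under every annotation, list and uniqueness setting compared, at 0.478 to 0.674 times the near median. No paired analysis was possible because there is 1 group and no comparison between groups.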
